A study of Mus musculus with 10 samples.

Results

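Potassium channels set the resting voltage of retinal cells and shape their light responses, and the genes described here are those of 6 such channels: Kcnv2, Kcnj14, Kcnh1, Kcnh2, Kcnh3 and Kcnq3. They were listed by name, under the heading of photoreceptor and hERG-type potassium channels, with no reason given for each gene. The antimalarial halofantrine is known to block hERG, the channel encoded by Kcnh2. Of the 6 listed genes, 5 were among the 11702 genes of the gene table, and Kcnh3 was read from the transcript table. In rods and cones a slowly gated potassium current of the inner segment opposes the dark current that enters through the outer segment. It is carried by channels that hold the subunit of Kcnv2, which forms no channel on its own, and loss of KCNV2 causes a cone dystrophy with abnormally large rod responses in humans. The voltage-gated channels of the Kcnh family include ether-a-go-go (Kcnh1), hERG (Kcnh2) and an ether-a-go-go-like channel (Kcnh3), Kcnq3 contributes to the M current of neurons, and Kcnj14 encodes an inward rectifier.

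RNA came from whole retinas of 10 female mice. The rd10 mice, bred from the strain B6.CXB1-Pde6b rd10/J, have a mutation in Pde6b, which encodes a subunit of the phosphodiesterase of rods, and lose their rods after birth. Each eye studied had received 1 μL into the vitreous on postnatal days P10 and P24 before collection at P36. The groups were WT mice given DMSO (4 libraries, W1 to W4), rd10 mice given DMSO (3 libraries, D1 to D3) and rd10 mice given 20 μM halofantrine, called HAL (3 libraries, H1 to H3). All groups shared the ketamine and xylazine anesthesia and both injections, and no group was left uninjected. The labels do not say whether libraries came from separate litters, so p-values measure the spread between these libraries. The strain of the WT mice is not given in the sources used here. By the labels, batch 2 held D3 together with H2 and H3, and batch 1 held the other 7 libraries. WT libraries exist in batch 1 alone, so comparisons with WT that hold D3, H2 or H3 are also given within batch 1. The sample titles also name sets: W1 to W3 share one, W4 has its own, D1, D2 and H1 share another, and within batch 2 the title of D3 differs from those of H2 and H3. What a set is was not given in the sources used here, so genotype and set cannot be told apart within batch 1, nor treatment and title within batch 2.

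Gene counts per library ran from 15512212 in D3 to 38160436 in D2. The library labelled WT W4 went against its label: Pde6b stood at 93.1 CPM there (gene counts relative to the scaled library total, not corrected for gene length), below all 6 rd10 libraries (125 to 387 CPM) and far below W1 to W3 (2699 to 2855 CPM). The summed level of 9 rod marker genes was 68754 to 72603 CPM in W1 to W3, 2526 CPM in W4, and 3269 to 10241 CPM in the rd10 libraries. Comparisons of the listed genes with WT are therefore given with all 4 WT libraries and without W4. Marker lists of cones, bipolar, amacrine, ganglion, horizontal and Muller glia cells were measured in every library.

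Potassium channels line the ion path with a selectivity filter, and the coding bases of that filter are shown for 5 of the listed genes because they set the hERG group apart from Kcnv2 and Kcnj14. The 5 filter codons are in capitals, with 15 coding bases on each side, in GENCODE M21 transcripts of the GRCm38 genome. For Kcnv2 the window crosses an intron, so its genomic span is longer than the bases printed. They lie at chr5:24325540-24325584 (Kcnh2, minus strand), chr1:192337739-192337783 (Kcnh1, plus), chr15:99232914-99232958 (Kcnh3, plus), chr19:27324155-27333683 (Kcnv2, plus) and chr7:45819618-45819662 (Kcnj14, minus).
Kcnh2: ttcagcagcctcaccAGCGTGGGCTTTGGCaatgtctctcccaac
Kcnh1: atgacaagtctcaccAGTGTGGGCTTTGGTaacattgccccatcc
Kcnh3: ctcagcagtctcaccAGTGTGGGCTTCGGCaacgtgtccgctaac
Kcnv2: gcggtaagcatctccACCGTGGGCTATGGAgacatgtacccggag
Kcnj14: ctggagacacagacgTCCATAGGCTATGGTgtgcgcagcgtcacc
Over the 45 bases, Kcnh3 was identical to Kcnh2 at 80.0% of positions and Kcnh1 at 66.7%, against 55.6% for Kcnv2 and 40.0% for Kcnj14. The fourth filter codon was TTT or TTC in the Kcnh genes and TAT in Kcnv2 and Kcnj14.

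Levels between genes were compared per transcript length, as TPM, in which counts are divided by transcript length and the library's total. In W1 to W3 the inward rectifier gene Kcnj14 was the highest at 424 ± 23.5 TPM (SD, n = 3), followed by Kcnv2 at 306 ± 5.91 TPM and Kcnh2 at 54.0 ± 4.44 TPM. These neighbours did not overlap between libraries. Kcnh1 stood at 4.45 ± 0.29 TPM and Kcnq3 at 4.20 ± 0.62 TPM, and the ranges of that pair overlapped. Kcnh3 was last in every library, with 2 to 14 estimated transcript counts per library and at most 0.41 TPM, and its levels in the groups could not be told apart at this depth. In the rd10 DMSO retinas the order on the TPM scale was another: Kcnh2 led at 91.0 ± 25.4 TPM (n = 3), with Kcnj14 at 46.4 ± 14.2 TPM and Kcnv2 at 44.7 ± 19.1 TPM. D3 was the exception, since its Kcnh2 (62.1 TPM) lay below its Kcnj14 (62.8 TPM) and Kcnv2 (66.6 TPM). In the HAL retinas Kcnh2 led in each of the 3 libraries, at 116 ± 6.47 TPM.

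The first comparison asked how the listed channels differed between degenerated and WT retina. Kcnv2 and Kcnj14 were far lower in rd10 DMSO than in W1 to W3, and Kcnh1, Kcnh2 and Kcnq3 were higher. Without W4, edgeR's quasi-likelihood test with Benjamini-Hochberg adjustment over all genes called all 5 members, where it called 62.2% of all 11696 genes tested (32.3% higher, 29.9% lower), so that a call in itself does not set these genes apart. With all 4 WT libraries the same test called 0 of 11698 genes (0%), although 3108 genes (26.6%) had an unadjusted p under 0.05, among them Kcnv2, Kcnj14 and Kcnq3. With W4 included, limma-voom also called 0 genes and DESeq2 called 589, among them Kcnv2 (adjusted p = 0.0266) and Kcnj14 (adjusted p = 0.0152). In the edgeR fit within batch 1 (D1 and D2 against W1 to W3) the log2 fold changes kept their direction. They were -3.46 for Kcnv2, -3.76 for Kcnj14, 1.11 for Kcnh1, 0.72 for Kcnh2 and 0.65 for Kcnq3. With W4 added to that fit they were -3.08, -3.36, 0.73, 0.55 and 0.51, none of them called (adjusted p = 0.246 each). In whole retina, fewer cells of a type and less RNA per cell cannot be told apart.

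**Figure D1:**
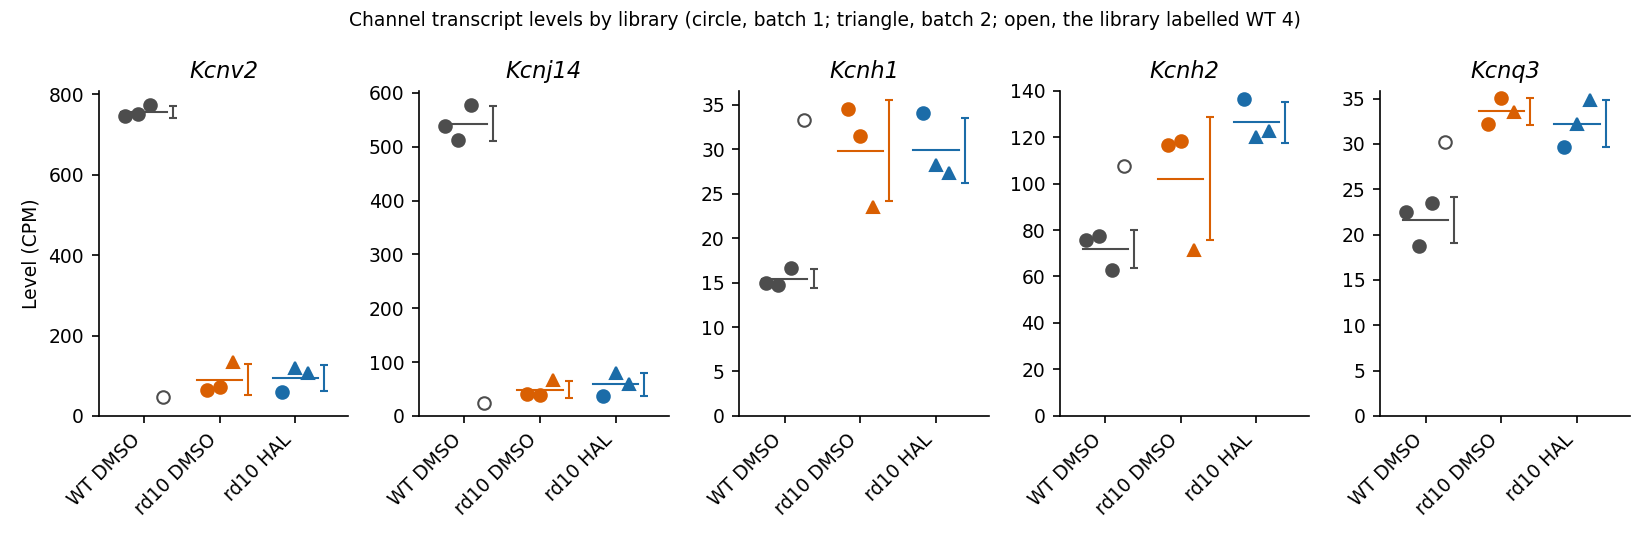
Levels of the 5 listed genes in the gene table, in CPM after TMM scaling, 1 point per library. Horizontal lines and bars are the mean and SD of a group (without the library labelled WT W4, drawn open), circles are batch 1 and triangles batch 2. For Kcnv2, W1 to W3 sit between 746 and 773 CPM while the other 7 libraries sit between 46.9 and 135 CPM.

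Kcnv2, the modulatory partner of the photoreceptor channel, had levels of 746, 752 and 773 CPM in W1, W2 and W3 and of 46.9 CPM in W4. In rd10 DMSO it was at 64.4, 71.7 and 135 CPM in D1, D2 and D3. The rd10 DMSO libraries thus lay below W1 to W3 without overlap, as 69.1% of all genes did in one direction or the other, with D3 of batch 2 the highest of them, and W4 was lower than every rd10 library. Without W4 the log2 fold change was -3.06 ± 0.28 (SE; 8.35-fold lower), with an adjusted p of 8.95e-05 by edgeR. With W4 it was -2.68 ± 0.88, with an adjusted p of 0.187. D1, D2 and D3 kept 8.51%, 9.47% and 17.8% of the mean Kcnv2 level of W1 to W3.

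Kcnj14, an inward rectifier, measured 539, 513 and 577 CPM in W1 to W3 and at 23.3 CPM in W4, and at 40.8, 39.1 and 66.5 CPM in D1 to D3. Again W1 to W3 and the rd10 DMSO libraries did not overlap, and D3 was the highest rd10 DMSO library. Its log2 fold change without W4 was -3.47 ± 0.21 (11.1-fold lower; edgeR adjusted p = 2.22e-05). With W4 it was -3.08 ± 0.96 (adjusted p = 0.187). D1 to D3 kept 7.52%, 7.20% and 12.2% of the W1 to W3 mean.

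The rod markers fell alongside: without W4 all 9 were called lower, with a median log2 fold change of -3.29. With W4, 0 of them were called and the median was -2.91. The 8 cone markers went both ways without W4: 3 were called higher and 2 lower, from -1.13 for Opn1sw to 0.75 for Pde6c, and with W4 0 were called. Set against the mean log2 level of the rod list in the same library, Kcnj14 had an average difference between rd10 DMSO and W1 to W3 of 0.00 (exact two-sided permutation p = 1.00), with the D libraries spread on both sides of WT. Kcnv2 kept more than the rod list, by 0.37 log2 units, and all 3 rd10 DMSO libraries were above W1 to W3 on this measure, D3 by little. The exact permutation p was 0.1, the smallest that 3 against 3 libraries can give, and 0.24 after adjustment over 12 such tests. With W4 the exact permutation p was 0.114 for Kcnv2. Among the 6 rd10 libraries, where depth, batch and rod content are shared by every gene, Pearson's r with the rod list was 0.99 for Kcnv2 and 0.96 for Kcnj14.

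Kcnb2, a pore subunit known to pair with that of Kcnv2, was low and went the other way. It rose from 35.5 ± 2.34 CPM in W1 to W3 to 52.6 ± 6.89 CPM in rd10 DMSO, by 0.58 ± 0.11 log2 units (edgeR adjusted p = 0.00232 without W4), and with W4 the log2 fold change was 0.33 ± 0.22 (adjusted p = 0.294). The ratio of Kcnv2 to Kcnj14 on the TPM scale was 0.72 ± 0.03 in W1 to W3 and 0.94 ± 0.12 in rd10 DMSO (exact permutation p = 0.1, 0.2 adjusted over 8 ratio tests). W4, at 1.03, lay within the rd10 DMSO range, and with it the exact permutation p was 0.229.

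**Figure D2:**
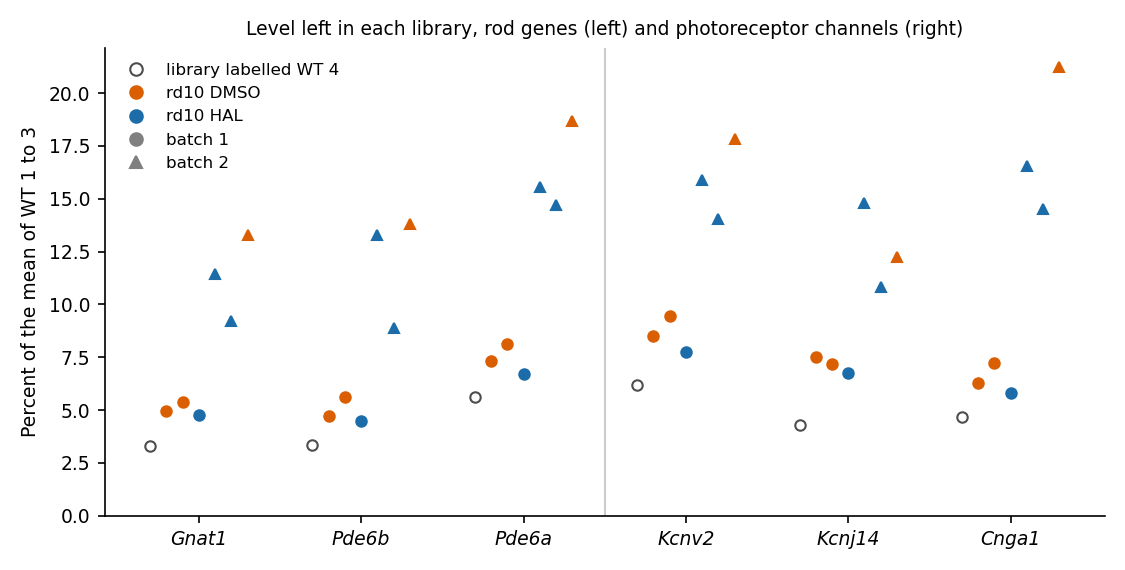
Level of 3 rod phototransduction genes (left) and 3 photoreceptor channel genes (right) in each library as a percentage of the mean of W1 to W3. Kcnv2 was at 7.73% to 17.8% in the rd10 libraries, Kcnj14 at 6.76% to 14.8% and the rod channel gene Cnga1 at 5.82% to 21.2%, and batch 2 (triangles) lies above batch 1 for each gene plotted.

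Of 13 other channels and exchangers of photoreceptors, 8 were called lower and 2 higher in rd10 DMSO without W4 (against 29.9% and 32.3% of all genes). With all 4 WT libraries 0 of the 13 were called, and the median moved from -1.32 to -1.07. The rod channel subunits Cnga1 and Cngb1, which carry the dark current, had log2 fold changes of -3.11 and -3.10, close to that of Kcnv2. The cone subunit Cnga3 rose by 0.61 log2 units (adjusted p = 0.0075), and Slc24a2, the cone exchanger, by 0.81 (adjusted p = 1.56e-04). With W4 the log2 fold changes were -2.71 for Cnga1, -2.73 for Cngb1, 0.42 for Cnga3 and 0.57 for Slc24a2, none of them called. Cngb3 and Atp1b2 were among those that did not pass the test.

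Kcnh1, the ether-a-go-go channel, measured 14.9, 14.7 and 16.6 CPM in W1 to W3 and at 33.3 CPM in W4. In D1 to D3 it was at 34.5, 31.5 and 23.5 CPM, all above W1 to W3, with D3 the lowest and W4 within the rd10 range. Its log2 fold change was 0.97 ± 0.14 without W4 (1.96-fold higher; edgeR adjusted p = 8.24e-04) and 0.58 ± 0.32 with W4 (adjusted p = 0.223).

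Kcnh2, the hERG gene, measured 75.6, 77.3 and 62.7 CPM in W1 to W3 and at 108 CPM in W4, and at 117, 118 and 71.4 CPM in D1 to D3. D1 and D2 were above every WT library, but D3 lay within the range of W1 to W3, so the groups overlapped. The log2 fold change of 0.52 ± 0.19 without W4 passed edgeR's test narrowly (adjusted p = 0.0452). It did not pass with limma-voom (adjusted p = 0.0576) or when W1, W2, W3, D1 or D2 was also left out (adjusted p from 0.0773 to 0.141), while without D3 it was 0.72 (adjusted p = 1.05e-04). With W4 it was 0.34 ± 0.23 (adjusted p = 0.303). The transcripts of Kcnh2 are rich in G and C (60.8%, more than 97.8% of genes), and D3 was low for such genes. Over the 574 genes in the top 5% by GC content its median deviation from the rd10 mean was -0.42 log2 units. That deviation was 0.05 in D1 and 0.02 in D2, and 0.17, 0.12 and 0.10 in H1 to H3. Kcnh2 itself deviated by -0.65 in D3. The part of GC content in the Kcnh2 values was not tested.

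Kcnq3, a subunit of the M channel, measured 22.5, 18.7 and 23.5 CPM in W1 to W3, 30.2 CPM in W4 and 32.2, 35.1 and 33.5 CPM in D1 to D3. It was the 1 member whose rd10 DMSO libraries lay apart from all 4 WT libraries, where 10.1% of all genes did so. Without W4 the log2 fold change was 0.65 ± 0.10 (1.57-fold; edgeR adjusted p = 9.45e-04), and with W4 it was 0.50 ± 0.16 (adjusted p = 0.187).

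Most other potassium channel genes moved like Kcnh1, Kcnh2 and Kcnq3. Of 46 such genes, without W4, 39 were called higher in rd10 DMSO (84.8%, against 32.3% of all genes) and 3 lower, with a median log2 fold change of 0.69 against -0.01 over all genes. With all 4 WT libraries 0 of the 46 were called, and 41 had a positive fold change with a median of 0.44. Those that fell included Kcnd1 (-0.56) and Kcne2 (-0.56), the accessory subunit known to associate with hERG. The smallest p-values among the genes that rose were those of Kcng4, a silent subunit (1.25), and Kcnma1, the large-conductance calcium-activated channel (0.88). Among the relatives of hERG, Kcnh5 rose by 0.89, Kcnh7 by 0.63 and Kcnh6 by 0.41 log2 units, and Kcnj10, the rectifier of Muller glia, by 1.17. With W4 these 4 values were 0.53, 0.40, 0.28 and 0.77, those of Kcnd1 and Kcne2 were -0.40 and -0.43, and those of Kcng4 and Kcnma1 were 0.80 and 0.61, none of them called. The lists of inner retinal markers were also higher: without W4 the median was 1.07 for 8 bipolar, 0.69 for 7 amacrine, 0.46 for 8 ganglion and 0.76 for 6 Muller glia genes, with 6, 6, 7 and 6 of them called higher. All 5 gliosis genes were called higher (median 3.32), as were the 4 microglia genes tested (2.36; Aif1 and Tmem119 were not in the table). Pigment epithelium genes summed to 29.9 to 164 CPM in W1 to W3 and 116 to 338 CPM in rd10 DMSO. With W4 0 genes of these lists were called, and the medians were 0.69 (bipolar), 0.47 (amacrine), 0.28 (ganglion), 0.46 (Muller glia), 1.69 (gliosis) and 1.32 (microglia). Their part in the channel values was not tested.

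**Figure D3:**
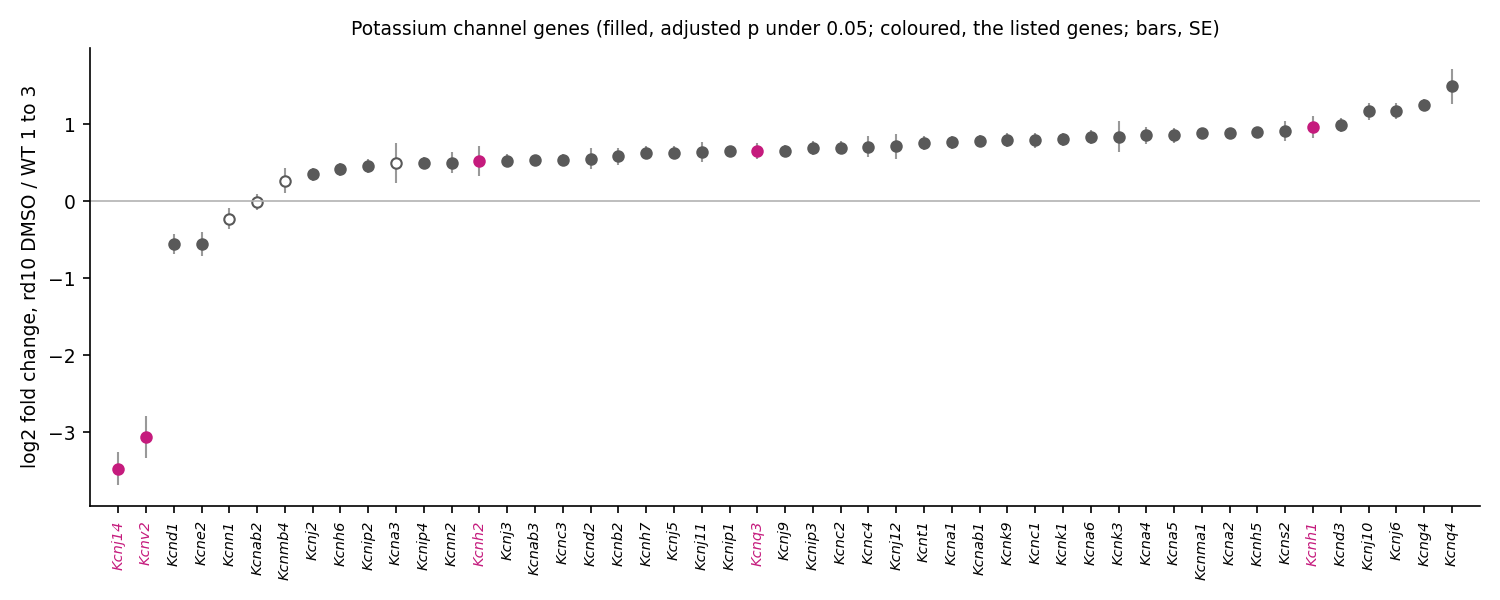
Log2 fold change between rd10 DMSO (3 libraries) and W1 to W3 for 49 potassium channel genes, in rising order, with SE bars. Filled points passed an adjusted p of 0.05 by edgeR. Kcnj14 and Kcnv2 are lowest of those plotted at -3.47 and -3.06, and Kcnh2 (0.52), Kcnq3 (0.65) and Kcnh1 (0.97) lie among the many genes that were higher.

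The HAL retinas, compared with the same WT libraries, gave values on the same side for every member. Without W4 all 5 were called, where 71.9% of 11699 genes were called (35.7% higher, 36.2% lower), and with all 4 WT libraries 1 gene was called in all (0.00855%), not a member. Without W4 the log2 fold changes were -2.99 ± 0.23 for Kcnv2, -3.21 ± 0.24 for Kcnj14, 0.95 ± 0.10 for Kcnh1, 0.81 ± 0.09 for Kcnh2 and 0.58 ± 0.10 for Kcnq3, each with an edgeR adjusted p of 6.13e-04 or less. With W4 they were -2.61, -2.82, 0.58, 0.64 and 0.44, with edgeR adjusted p-values of 0.135 to 0.190. With W4 DESeq2 called 2221 genes, among them Kcnv2 (adjusted p = 0.0150), Kcnj14 (0.0149) and Kcnh2 (0.0206). Within batch 1 H1 is the single HAL library, so log2 fold changes alone are given. Without W4 they were -3.68, -3.87, 1.15, 0.93 and 0.47 in the same order of genes. With W4 they were -3.30, -3.48, 0.78, 0.76 and 0.33. Of the 46 other potassium channel genes, 41 were called higher and 3 lower without W4. This comparison shares its WT libraries with the preceding one, so the values of both are not independent.

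The second question was whether halofantrine changed these channels within rd10 retina. No member passed the test between HAL and DMSO, and neither did any other gene: edgeR called 0 of 11692 genes (0%), with 557 at an unadjusted p under 0.05 (4.76%), limma-voom called 0 and DESeq2 called 3. Kcnh2, the channel halofantrine is known to block, was at 136, 120 and 122 CPM in H1 to H3 and 117, 118 and 71.4 CPM in D1 to D3. The HAL libraries all lay above the DMSO libraries, by a small margin over D1 and D2, and 13.1% of all genes had groups apart in this way. The median deviation of the GC-rich genes was likewise higher in each HAL library (0.10 to 0.17) than in each DMSO library (-0.42 to 0.05). Its part in the Kcnh2 difference was not tested. The log2 fold change of Kcnh2 was 0.30 ± 0.18 (edgeR adjusted p = 0.883). Without D3, the library low in GC-rich genes, it was 0.11, while Kcnv2 was at 0.49 and Kcnj14 at 0.56 in that fit. With batch as a term the Kcnh2 difference was 0.48 ± 0.12, with an unadjusted p of 0.00397 and an adjusted p of 0.269. Within batch 1 (H1 against D1 and D2) the difference was 0.21 log2 units and within batch 2 (H2 and H3 against D3) it was 0.76. Genes of other tissues also differed in level between these libraries, with 0 of them called. The 4 of 7 pigment epithelium genes in the table summed to 116 to 338 CPM in D1 to D3 and 101 to 167 CPM in H1 to H3 (median log2 fold change -0.69, 4 of 4 negative; -0.54 with the batch term). The 3 of 5 blood genes in the table summed to 96.5 CPM in H2 and 79.6 CPM in H3, against 11.8 to 30.8 CPM in the other 4 rd10 libraries (median 1.45, 3 of 3 positive; 0.60 with the batch term). The 2 of 4 lens genes in the table summed to 18.6 CPM in H2, 4.37 CPM in D3 and 0.18 to 0.30 CPM in the others. Their part in the member values was not tested.

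Kcnv2 was at 58.5, 120 and 106 CPM in H1 to H3, against 64.4, 71.7 and 135 CPM in D1 to D3. The groups overlapped, and in each of them the batch 2 libraries were the high ones. The log2 fold change was 0.08 ± 0.34 (edgeR adjusted p = 0.976) without a batch term and -0.24 ± 0.07 with it (unadjusted p = 0.0138, adjusted p = 0.269), and within batches it was -0.22 and -0.25. Thus the direction of the Kcnv2 difference turned with the batch term. The rod markers turned with it, from a median of 0.12 (9 of 9 positive) to -0.22 (8 of 9 negative), and Pde6b from 0.15 ± 0.49 to -0.27 ± 0.15, with 0 of the 9 called in either fit. Their part in the Kcnv2 values was not tested. With that term 16.6% of all genes had an unadjusted p under 0.05, as had 2 of the 5 members.

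Kcnj14 was at 36.7, 80.3 and 58.7 CPM in H1 to H3, which overlapped the 39.1 to 66.5 CPM of rd10 DMSO, with a log2 fold change of 0.27 ± 0.31 (edgeR adjusted p = 0.918) and -0.03 ± 0.12 with the batch term. Kcnh1 was at 34.0, 28.2 and 27.3 CPM, within the range of rd10 DMSO, and its log2 fold change of -0.01 ± 0.15 became 0.14 ± 0.08 with the batch term. Kcnq3 was at 29.6, 32.2 and 34.8 CPM, with a log2 fold change of -0.06 ± 0.08 and -0.09 ± 0.08 with the batch term. None of these passed the test under either fit. Of the 46 other potassium channel genes 0 were called. The smallest p-values belonged to Kcnab3 (log2 fold change 0.21, unadjusted p = 0.0285) and Kcnn2 (0.35, 0.0335) among those higher, and to Kcnh7 (-0.14, 0.0902) and Kcnma1 (-0.15, 0.0927) among those lower, all with an edgeR adjusted p of 0.883.

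**Figure D4:**
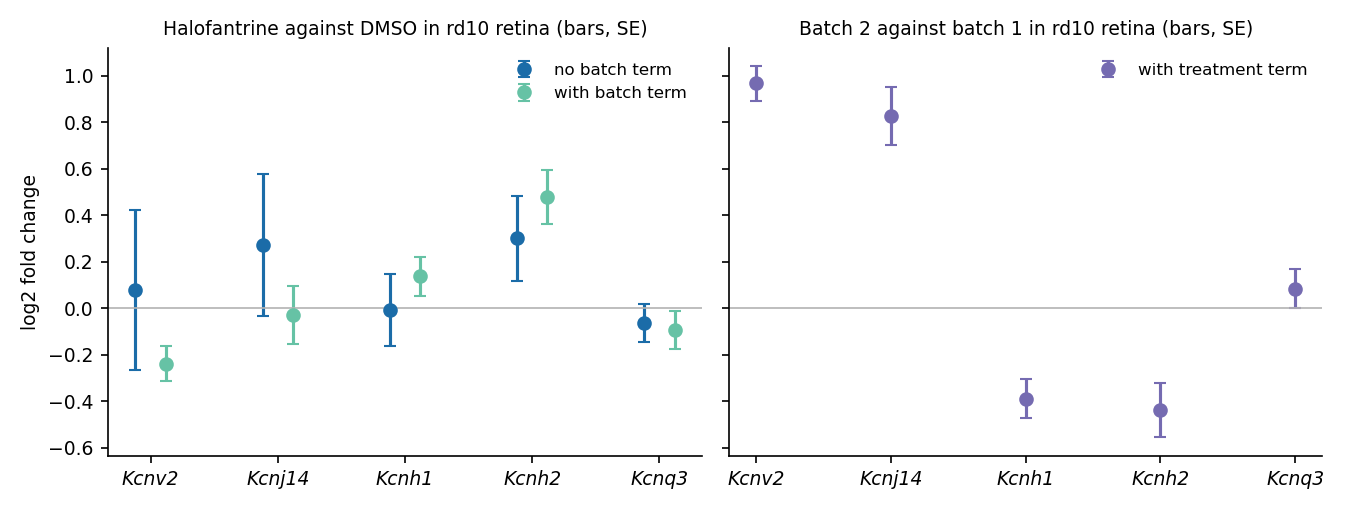
Log2 fold changes of the 5 members with SE bars: halofantrine against DMSO (left), fitted without and with a batch term, and batch 2 against batch 1 (right), each over the 6 rd10 libraries. Kcnv2 goes from 0.08 to -0.24 with the batch term, and between batches it differs by 0.97.

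The third comparison was between the batches of the labels. In the 6 rd10 libraries, with treatment as a term, edgeR called 542 of 11698 genes between batch 2 and batch 1 (4.63%; 3.09% higher, 1.55% lower), among them 3 of the 5 members. Kcnv2 was at 58.5, 64.4 and 71.7 CPM in batch 1 and at 106, 120 and 135 CPM in batch 2, without overlap. It was higher in batch 2 by 0.97 ± 0.07 log2 units (adjusted p = 0.00165), by 0.99 within DMSO and 0.95 within HAL. Kcnj14 was at 36.7 to 40.8 CPM in batch 1 and 58.7 to 80.3 CPM in batch 2, higher by 0.83 ± 0.12 (adjusted p = 0.0163), a call lost without D2 (adjusted p = 0.0511) or D3 (0.0936). Groups lay apart between the batches in 27.9% of all genes.

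Kcnh1 went the other way, from 31.5 to 34.5 CPM in batch 1 to 23.5 to 28.2 CPM in batch 2, lower by 0.39 ± 0.08 (adjusted p = 0.0471). That call was lost with limma-voom (adjusted p = 0.0587) and on leaving out any rd10 library but H1 (0.0880 to 0.234). Kcnh2 differed by -0.44 ± 0.12 (adjusted p = 0.0731), with -0.72 in DMSO, where D3 is the single batch 2 library, and -0.17 in HAL. Kcnq3 differed by 0.09 ± 0.08 (adjusted p = 0.520). The 9 rod markers were all called higher in batch 2, with a median of 1.23, and Pde6b by 1.36. Inner retinal markers had mostly negative differences: 7 of 8 bipolar genes (median -0.07, 2 called lower), 6 of 7 amacrine genes (-0.13, 2 called lower), 7 of 8 ganglion genes (-0.11, 0 called) and 6 of 6 Muller glia genes (-0.22, 2 called lower). The blood and lens genes had medians of 1.46 and 4.37, with 0 called, and lens genes were high in D3 and H2 but not in H3. Of the other potassium channel genes 1 was called higher and 2 lower (Kcnj12, -0.51, and Kcnj10, -0.33). What differed between the batches is not given in the sources used here, and its part and that of the marker genes in these values was not tested. A fit of the batches over all 10 libraries called 0 genes, with 673 at an unadjusted p under 0.05.

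The transcript table separated the forms of Kcnh1 and Kcnh2. Kcnh2 is read from separate first exons: Kcnh2-201 (chr5:24319589-24351604, minus strand) codes for the long amino-terminal end and Kcnh2-202 (chr5:24319589-24329591) for a short one, which is known to make channels that close faster. The coding parts of their first coding exons, at chr5:24351208-24351283 and chr5:24329165-24329272, are shown because reads there tell the forms apart, with the start codon in capitals.
Kcnh2-201: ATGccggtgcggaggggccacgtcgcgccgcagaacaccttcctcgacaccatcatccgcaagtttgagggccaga
Kcnh2-202: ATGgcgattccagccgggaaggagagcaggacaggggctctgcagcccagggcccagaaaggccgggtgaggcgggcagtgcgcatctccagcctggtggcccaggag
Kcnh2-202 took 56.4%, 58.2% and 50.3% of the gene's estimated counts in W1 to W3, 57.8% in W4, 52.8%, 55.9% and 47.7% in D1 to D3 and 58.1%, 54.3% and 50.9% in H1 to H3. The short form thus led in all 10 libraries, narrowly in D3 where Kcnh2-201 took 46.7%, and the groups overlapped. The exact two-sided permutation p was 0.5 for HAL against DMSO and 0.343 for rd10 DMSO against the 4 WT libraries. The ratio of Kcnh2 to Kcnh1 (TPM) was 12.2 ± 1.74 in W1 to W3, 8.58 ± 1.17 in rd10 DMSO and 11.2 ± 0.81 in HAL. Rd10 DMSO lay below W1 to W3 and below HAL without overlap (exact permutation p = 0.1 each, 0.2 adjusted over 8 ratio tests). W4, at 8.16, lay within the rd10 DMSO range, and with it the exact permutation p against WT was 0.171. The part of GC content in this ratio was not tested.

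The Kcnh1 transcripts Kcnh1-201 and Kcnh1-202 (both chr1:192190774-192510159, plus strand) differ by 81 coding bases at chr1:192277091-192277171, in capitals here between 20 shared bases on each side, as the split of the counts rests on them.
Kcnh1-201: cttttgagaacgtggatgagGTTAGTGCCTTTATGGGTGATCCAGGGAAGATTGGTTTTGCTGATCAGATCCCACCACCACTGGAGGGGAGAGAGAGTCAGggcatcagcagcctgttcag
Kcnh1-202: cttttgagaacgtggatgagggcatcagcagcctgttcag
The shorter Kcnh1-202 took 62.0%, 79.6% and 90.8% of the Kcnh1 counts in W1 to W3 and 42.4% in W4. It took 52.1%, 46.4% and 66.3% in D1 to D3 and 76.1%, 70.4% and 84.8% in H1 to H3. The HAL libraries all lay above the DMSO libraries, by 22.2 percentage points on average, and overlapped with W1 to W3. The exact two-sided permutation p of 0.1 is the smallest 3 against 3 can give, and it was 0.457 after adjustment over 8 share tests. Rd10 DMSO differed from the 4 WT libraries by -13.8 percentage points (exact permutation p = 0.4), and from W1 to W3 by -22.6 percentage points (exact permutation p = 0.2), so W4 alone moved this difference by over 1.5 times. The 81 bases are a small part of a transcript of 7242 bases, and the counting error of the split was not measured.

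**Figure D5:**
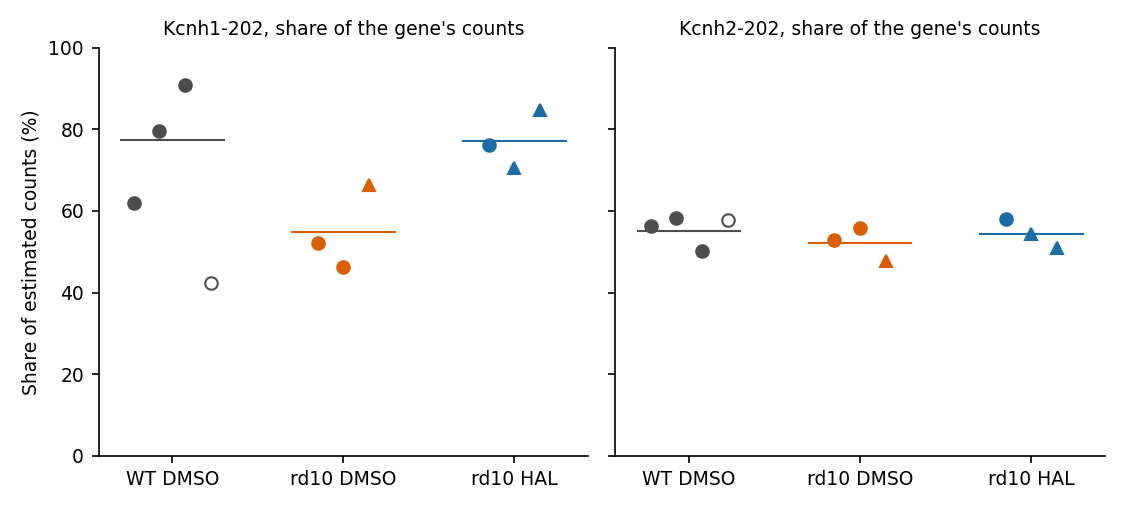
Share of a gene's estimated counts on its leading transcript, in percent, 1 point per library (circles batch 1, triangles batch 2, open the library labelled WT W4, lines the group means without it). For Kcnh1-202 the HAL libraries (70.4% to 84.8%) lie above the DMSO libraries (46.4% to 66.3%), while for Kcnh2-202 the groups overlap.

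For Kcnj14 and Kcnq3 a single transcript took nearly all counts, at least 99.1% for Kcnj14-201 (chr7:45816460-45824782, minus strand) and at least 98.6% for Kcnq3-201 (chr15:65986387-66286642, minus strand), and Kcnv2 has 1 transcript (chr19:27322588-27337179, plus strand). Kcnh3 had 77.0 estimated counts summed over its transcripts and all 10 libraries, of which Kcnh3-203 took 43.4 and Kcnh3-201 (chr15:99224861-99242817, plus strand) took 31.9.

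The genes whose log2 levels over the 10 libraries were most like each member are given as a description, since the levels of W1 to W3 and of the other 7 libraries form separate clusters, which a correlation over all 10 also reads. Kcnv2 was nearest to Lbhd1, Nt5e and Gnat1, the rod transducin (Pearson's r of 0.9997, 0.9994 and 0.9994), and Kcnj14 to Nxnl2, E130310I04Rik and C2cd2l (0.9982, 0.9982 and 0.998). Kcnh1 was nearest to Slc6a9, a glycine transporter of amacrine cells, Sema6a and Trim62 (0.997, 0.9954 and 0.9939). Kcnh2 was nearest to Grik5, a kainate receptor subunit, Plppr3 and Adgrb1 (0.9935, 0.9935 and 0.9914), each of which was also lowest of the rd10 libraries in D3. Kcnq3 was nearest to Rab21, Ifih1 and Hip1 (0.9857, 0.9834 and 0.9821). Within the 6 rd10 libraries, Kcnv2 and Kcnj14 had an r of 0.945 with each other, and Kcnh1 one of -0.93, Kcnh2 of -0.61 and Kcnq3 of 0.34 with the rod list.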

How the data were processed

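RNA of 10 mouse retinas was sequenced from polyA libraries. Per the submitters' processing notes and the study's methods, the authors ran kallisto on Ensembl mouse transcripts (GRCm39), summed them with tximport, used edgeR and limma, and deposited estimated counts per transcript and per gene. They also deposited a table named as CPM, which is a signal scaled by library and was used here only as an alternative for levels, and a table of their own halofantrine comparison (fold changes and p-values), which was not used. The deposited estimated counts were here rounded to whole numbers and filtered with filterByExpr, then scaled by TMM and tested with edgeR 4.0.16 (quasi-likelihood, Benjamini-Hochberg adjustment over all genes tested, threshold 0.05) in R 4.3.3. Standard errors were derived from the fold change and its F statistic. Cnga1, Cngb1, Cnga3, Slc24a2, Cngb3, Atp1b2 and Kcnd1 were named after their values had been seen. DESeq2 1.42.0, limma-voom (limma 3.58.1), relative log scaling, no filter, all 10 libraries, a batch term, batch 1 alone and leaving out each replicate were alternatives. Fits without W4 and their own alternatives were added after the data had been seen.

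CPM was scaled by TMM over the 10 libraries, and log2 CPM used a prior count of 2. TPM used transcript lengths of GENCODE M21, matched by transcript identifier without version, which covered 97.4% to 97.7% of transcript counts, and sequences and coordinates are of GRCm38, another build than the authors'. TPM values of a library have a fixed sum, so differences between groups were taken from TMM-scaled counts. Symbols were found for 11492 of 11702 identifiers. Shares and ratios were compared by exact two-sided permutation tests. The fits were tested on simulated data. The named genes were the listed channels, 23 relatives of which 12 were in the gene table, the 3 genes most like each member, in each comparison the other potassium channel genes of smallest p-value (2 a direction), and Pde6b. Members and gene lists were chosen with earlier results of these data known. The labels list each library as its own retina sample, and 3 to 4 libraries per group set the precision. Counts do not identify molecules. Some items that were analysed are not reported here, and they remain in the counts of gene lists and of tests.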

Additional observations from a re-analysis of the deposited data

Results flagged for a closer look

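In the WT group of 4 libraries, 11 results were checked for a single library far from the rest, by the gap to its nearest neighbour divided by the group's range. For independent results chance passes about 1 in 20, or 0.55 of 11, and 3 passed. All 3 were set by the library labelled WT W4. That W4 went against its label was known before this check, and the levels of these genes were correlated. The count of 3 is therefore a description and cannot be judged against 0.55. The measure was 0.962 for Kcnv2 CPM, 0.884 for Kcnj14 CPM and 0.897 for Kcnh1 CPM. The summed rod markers of W4 (2526 CPM) were also below all other libraries.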

How the results depend on the processing

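Counts of called genes depended on the tool and on single libraries. HAL against DMSO gave 0 calls, 3 with DESeq2 and 0 to 7 on leaving out single libraries (1 without D1, 7 without D2). Rd10 DMSO against WT gave 0 calls, 589 with DESeq2 and 0 to 7280 on leaving out single libraries, where W4 alone made the difference. Rd10 HAL against WT gave 1 call, 2221 with DESeq2, 0 with limma-voom, with all 10 libraries and in batch 1 alone, and 0 to 8408 on leaving out single libraries (8408 without W4, 0 without W1, W3, H1 or H2). Batch 2 against batch 1 gave 542 calls, 1419 with DESeq2, 0 with all 10 libraries and 91 to 2638 on leaving out single libraries: 216 without D1, 212 without D2, 91 without D3, 2638 without H1, 216 without H2 and 217 without H3. The cause was not tested. Without W4, every alternative kept the calls for Kcnv2, Kcnj14, Kcnh1 and Kcnq3 in both WT comparisons.

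In HAL against DMSO the batch term turned the direction of Kcnv2 (-0.24), Kcnj14 (-0.028) and Kcnh1 (0.14), none of them called. On leaving out single libraries the log2 fold change ran from -0.13 to 0.49 for Kcnv2, -0.026 to 0.56 for Kcnj14 and -0.14 to 0.11 for Kcnh1. Kcnh2 ran from 0.11 (without D3) to 0.48 (with the batch term) and kept its sign. In the batch comparison Kcnq3 ran from -0.0061 (without H1) to 0.18. In the batch comparison Kcnh2 was called with DESeq2 (adjusted p = 0.00244) and without H1 (-0.72, adjusted p = 0.00281). The Kcnq3-201 share in rd10 DMSO minus WT ran from -0.082 (without W1) to 0.39 percentage points. The authors' scaled values left all member levels within 1 SD. No paired analysis was possible because the labels tie no library of one group to one of another, and replicate numbers here follow accession order. D3, with 15512212 counts, was the shallowest library and limits what batch 2 shows for DMSO.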
